A study of Mus musculus with 7 samples.

Results

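Integrins are receptors of paired α and β subunits that hold a cell to the matrix or to other cells. Laminins are the 3-chain proteins, 1 α, 1 β and 1 γ chain, from which a basement membrane is built. The genes described here were all those whose symbol names an integrin subunit or a laminin chain and that had a probe set assigned to that gene alone. They numbered 34 of 18194 named genes, with 16 integrin α subunits, 8 integrin β subunits and 10 laminin chains. A gene measured by several probe sets was represented by the probe set whose mean log2 signal across arrays was highest. Probe sets of Itga11 and Itgad were not analysed here.

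RNA of 7 samples was measured, 1 array each, on a mouse expression array. Ectoderm (Ect), endoderm (End) and paraxial mesoderm (Pme) had been differentiated in culture from SK7, and the same undifferentiated embryonic stem cells (SK7_ESC) were the starting point. SK7 is 1 male mouse line that carries GFP under the Pdx1 promoter, and the 3 layers share that line and transgene. Brain, Liver and Sk_muscle, the skeletal muscle, came from adult male ICR mice, and whether animals were pooled was not given in the sources used here. With 1 array per group there is no replicate, so no spread, error or p-value can be given, and every difference below is between single arrays.

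Which α and which β subunit meet decides what an integrin binds. Subunits α3, α6 and α7 with β1 bind laminin, α5 with β1 binds fibronectin, αv with its several β partners binds vitronectin and latent TGF-β, and β2 and β7 integrins belong to leukocytes. In a laminin the α chain carries the main binding site for these receptors, while the β and γ chains complete the trimer that leaves the cell. Laminin α1 and α5 are the chains of the early embryo, and α2 and α4 are known from muscle, nerve and vessel walls.

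A signal here is the deposited linear intensity, scaled by the authors to an array average of 100, and a signal under 50 was treated as background. Signals of different genes come from different probes and were not set against each other. Marker genes matched most labels. All 6 pluripotency genes were above background in SK7_ESC, 4 of 5 neural progenitor genes in Ect and 5 of 5 definitive endoderm genes in End. Pax6, at 30.5, was missing in Ect. All measured neuron, hepatocyte and muscle fibre genes passed in Brain, Liver and Sk_muscle. Some were not confined there. All 4 measured neuron genes also passed in Ect, and Stmn2 was at 1275.4 in SK7_ESC against 1203.8 in Brain. Mylpf, of the muscle fibre genes, was at 662.9 in SK7_ESC. Of the hepatocyte genes, Ttr was at 4211.7 in Brain and Alb at 303.9 in Sk_muscle. Of the definitive endoderm genes, Cxcr4 was at 781.4 in Ect and Sox17 at 303.0 in Sk_muscle. Pme had 3 of 6 paraxial mesoderm genes above background, and Tbx6, Meox1 and Tcf15, which define that tissue, were not among them. End also held 3 of 6 pluripotency genes above background, Nanog at 299.5, Tdgf1 at 773.7 and Pou5f1 at 57.3, against 1533.4, 2788.2 and 2037.9 in SK7_ESC. In such bulk RNA, fewer cells of a type and less RNA per cell cannot be told apart.

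Background was passed somewhere by 26 of the 34 genes, namely 12 of 16 integrin α, 5 of 8 integrin β and 9 of 10 laminin genes. The count per array was 10 in Ect, 9 in End, 15 in Pme, 9 in Brain, 10 in Liver, 17 in Sk_muscle and 12 in SK7_ESC. The order depended on the processing. The geometric mean over probe sets put Pme first, with 9, and a background of 20 gave 13 in Ect, 14 in End, 18 in Pme, 18 in Brain, 21 in Liver, 25 in Sk_muscle and 16 in SK7_ESC. Over all named genes the share ranged between 43.0% in Liver and 49.94% in Brain. At the background of 50, Liver had 7 integrin α and 3 integrin β genes above it and 0 of 10 laminin chains. That absence rests on the cutoff. In Liver, Lama5 at 41.8, Lama3 at 35.6, Lamc1 at 29.2 and Lamb1 at 20.5 would pass a background of 20. The genes under background in all 7 arrays were Itga10, Itga2, Itgam, Itgax, Itgb3, Itgb4, Itgb7 and Lamc3, whose highest signals lay between 16.3 for Itgb3 in Sk_muscle and 36.6 for Itgb4 in Sk_muscle. Itgb3 is the platelet and osteoclast partner of αIIb and αv, and Itgb4 the hemidesmosome partner of α6. At these signals their presence was not detectable.

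**Figure D1:**
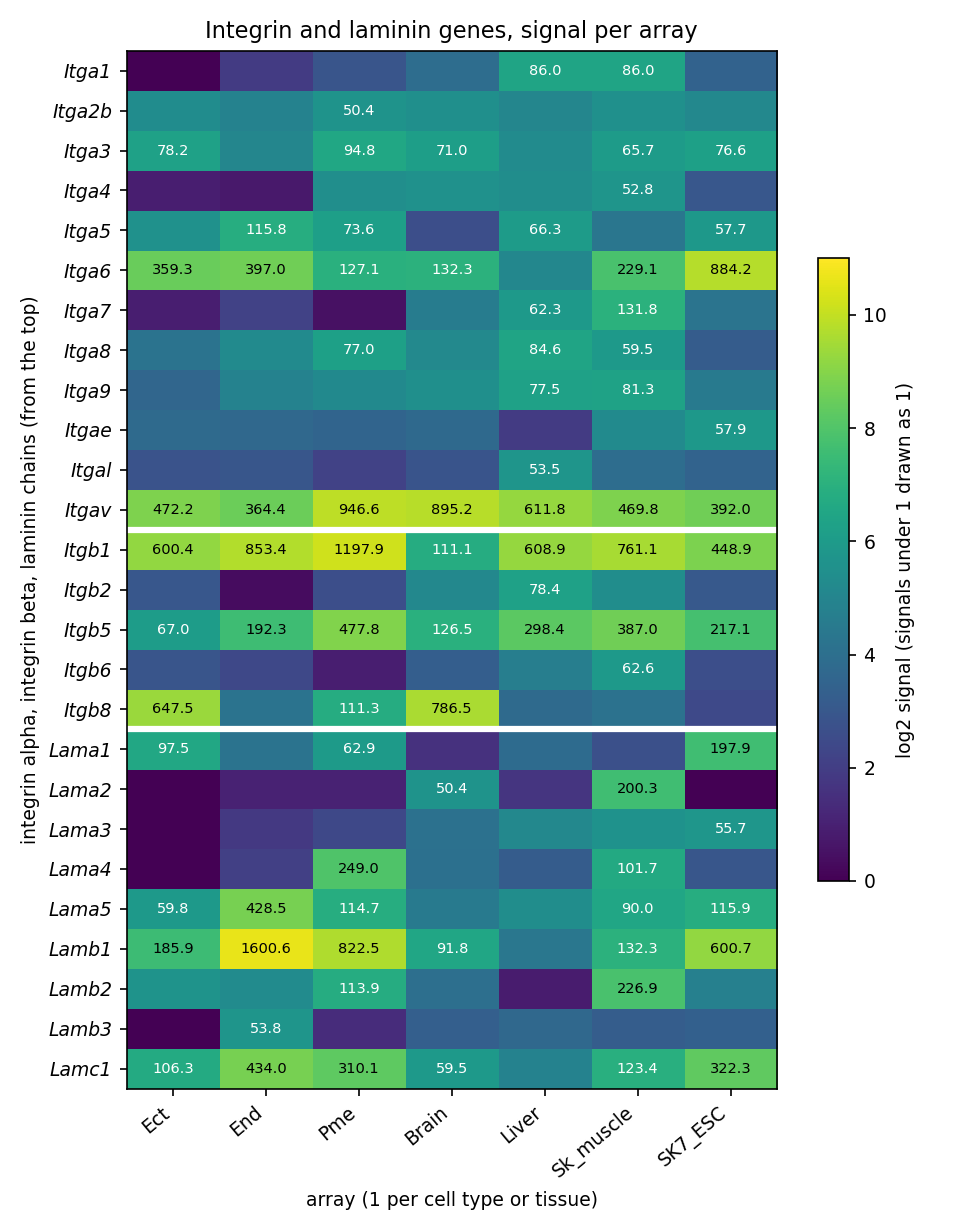
Signal of the 26 genes that passed background somewhere. Rows are genes and columns the 7 arrays, colour is log2 signal, and the printed number is the signal where it is at least 50. Itgav, Itgb1 and Itgb5 carry a number in every column, and Liver carries none among the laminin chains.

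Above background in all 7 arrays were 3 genes, Itgav, Itgb1 and Itgb5, which encode αv and its β1 and β5 partners. Their promoters are among the richest of the family in CpG, the dinucleotide at which DNA is methylated. RefSeq windows of 300 bases on GRCm38.p6, 250 before and 50 after the transcription start, were at hand for 22 of the 34 genes. Itgb1 had 27 CpG in its window, Itgav 24 and Itgb5 20, against a median of 8.0 over 27025 genes. The 6 genes above background in 5 or more arrays and with a window had 18 to 27 CpG. The 11 genes above in 1 to 4 arrays had 1 to 23, with a median of 10.0, and the 5 genes under background everywhere had 5 to 13, with a median of 6.0. The groups overlapped through Itga8, with 23 CpG and 3 arrays. A GC box, GGGCGG on either strand, lay in 6 of 6, 3 of 11 and 2 of 5 windows of these groups, and in 37.3% of all windows. These counts describe the sequence alone.

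**Figure D2:**
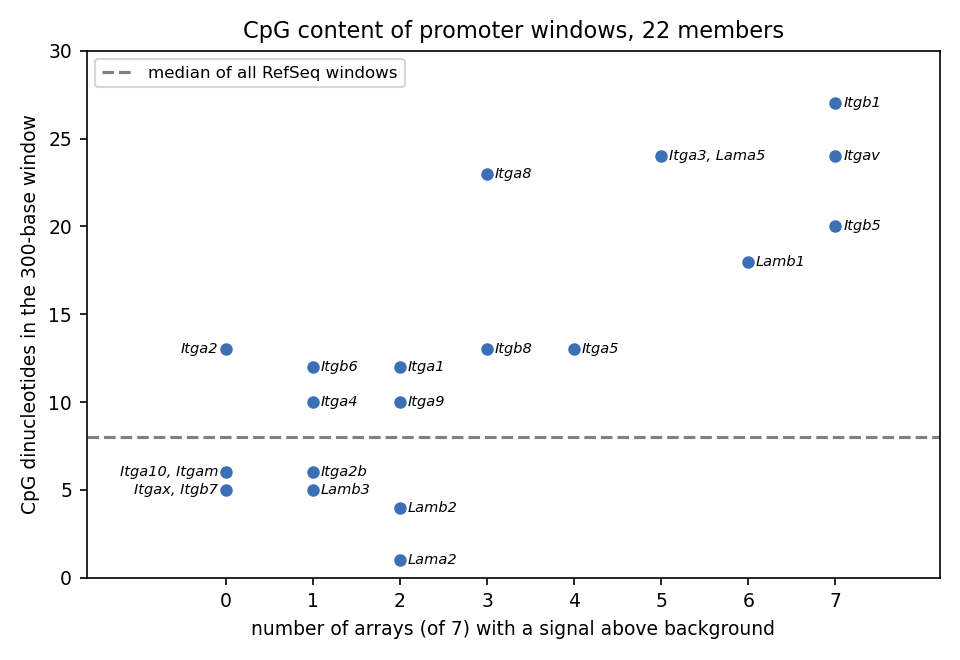
CpG dinucleotides in the 300-base promoter window (vertical axis) against the number of arrays with a signal above background (horizontal axis), 1 point per gene or per pair of genes at the same place. The 6 genes at 5 or more arrays lie at 18 CpG or more, and Lama2 and Lamb2 lie lowest, at 1 and 4.

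The stretches below are the 120 bases before the start of 6 genes on which the results turn, from RefSeq on GRCm38.p6, read 5′ to 3′ along the gene's strand with each CpG in capitals. Itgb1, Lamb1 and Lama5 were broadly detected, Itgb8 was confined to 3 arrays above background, and Lamb2 and Lama2 were bright in Sk_muscle.
Itgb1, chr8:128685534-128685653, plus strand: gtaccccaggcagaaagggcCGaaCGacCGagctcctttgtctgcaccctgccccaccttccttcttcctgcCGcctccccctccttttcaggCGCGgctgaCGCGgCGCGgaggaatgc
Lamb1, chr12:31265173-31265292, plus strand: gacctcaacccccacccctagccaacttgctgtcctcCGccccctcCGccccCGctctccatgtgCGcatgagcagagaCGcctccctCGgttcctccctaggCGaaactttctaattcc
Lama5, chr2:180225860-180225979, minus strand: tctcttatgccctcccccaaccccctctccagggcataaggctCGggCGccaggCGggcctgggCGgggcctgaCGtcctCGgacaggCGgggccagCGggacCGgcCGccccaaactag
Itgb8, chr12:119238277-119238396, minus strand: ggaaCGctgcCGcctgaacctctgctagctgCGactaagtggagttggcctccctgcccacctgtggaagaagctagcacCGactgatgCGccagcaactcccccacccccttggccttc
Lamb2, chr9:108479742-108479861, plus strand: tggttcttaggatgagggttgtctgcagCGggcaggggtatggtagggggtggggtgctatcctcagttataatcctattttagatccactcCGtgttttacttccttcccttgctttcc
Lama2, chr10:27616943-27617062, minus strand: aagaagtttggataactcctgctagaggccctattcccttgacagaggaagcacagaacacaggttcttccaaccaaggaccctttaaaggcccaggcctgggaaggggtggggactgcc
The stretch of Itgb1 held 10 CpG, as did that of Lama5, Lamb1 had 7 and Itgb8 5, while Lamb2 had 2 and Lama2 0. Promoters of Lama1 and Lamc1 are not shown.

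The laminin α chains differed in which array was brightest. Lama1 was brightest in SK7_ESC, Lama5 in End, Lama4 in Pme and Lama2 in Sk_muscle, and Ect, Brain and Liver were the brightest array for none of the 10 chains. A difference was called when 1 signal was at least 2 times the other after signals under 50 had been raised to 50, so that a ratio against a signal under 50 is a lower bound, written as at least.

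Lama1, the α chain of the first embryonic laminin, was at 97.5 in Ect, 18.5 in End, 62.9 in Pme, 3.0 in Brain, 14.5 in Liver, 6.5 in Sk_muscle and 197.9 in SK7_ESC. All 3 layers lay under SK7_ESC, 2.03-fold in Ect, at least 3.96-fold in End, 3.15-fold in Pme, and the adult tissues were under background. Lama5, the most widespread α chain of later basement membranes, was at 59.8 in Ect, 428.5 in End, 114.7 in Pme, 22.6 in Brain, 41.8 in Liver, 90.0 in Sk_muscle and 115.9 in SK7_ESC. End was called, 3.70-fold above SK7_ESC and 3.74-fold above the brighter of the other layers. A second probe set had 228.6 in End and at most 67.6 elsewhere. Both End calls ended with the geometric mean over probe sets, which takes in another at 3.1 or less in every array. Ect was 1.94-fold below SK7_ESC and was not called. It was called lower with quantile normalization and with arrays scaled to the same median.

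Lama4, a chain of vessel walls and mesenchyme, was at 0.9 in Ect, 4.2 in End, 249.0 in Pme, 16.7 in Brain, 9.3 in Liver, 101.7 in Sk_muscle and 7.6 in SK7_ESC. It was above background in Pme and Sk_muscle only, and in Pme it exceeded SK7_ESC and both other layers by at least 4.98-fold. A second probe set had 80.7 in Pme and at most 23.3 elsewhere. Lama2, the merosin chain whose loss causes a muscular dystrophy, was at 0.7 in Ect, 2.1 in End, 2.1 in Pme, 50.4 in Brain, 3.2 in Liver, 200.3 in Sk_muscle and 0.8 in SK7_ESC. Sk_muscle was 3.97-fold above Brain, which barely passed background, and all cultured cells were far under it. Lama3, the epidermal α chain, passed background only in SK7_ESC, at 55.7, with Sk_muscle next at 48.1.

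**Figure D3:**
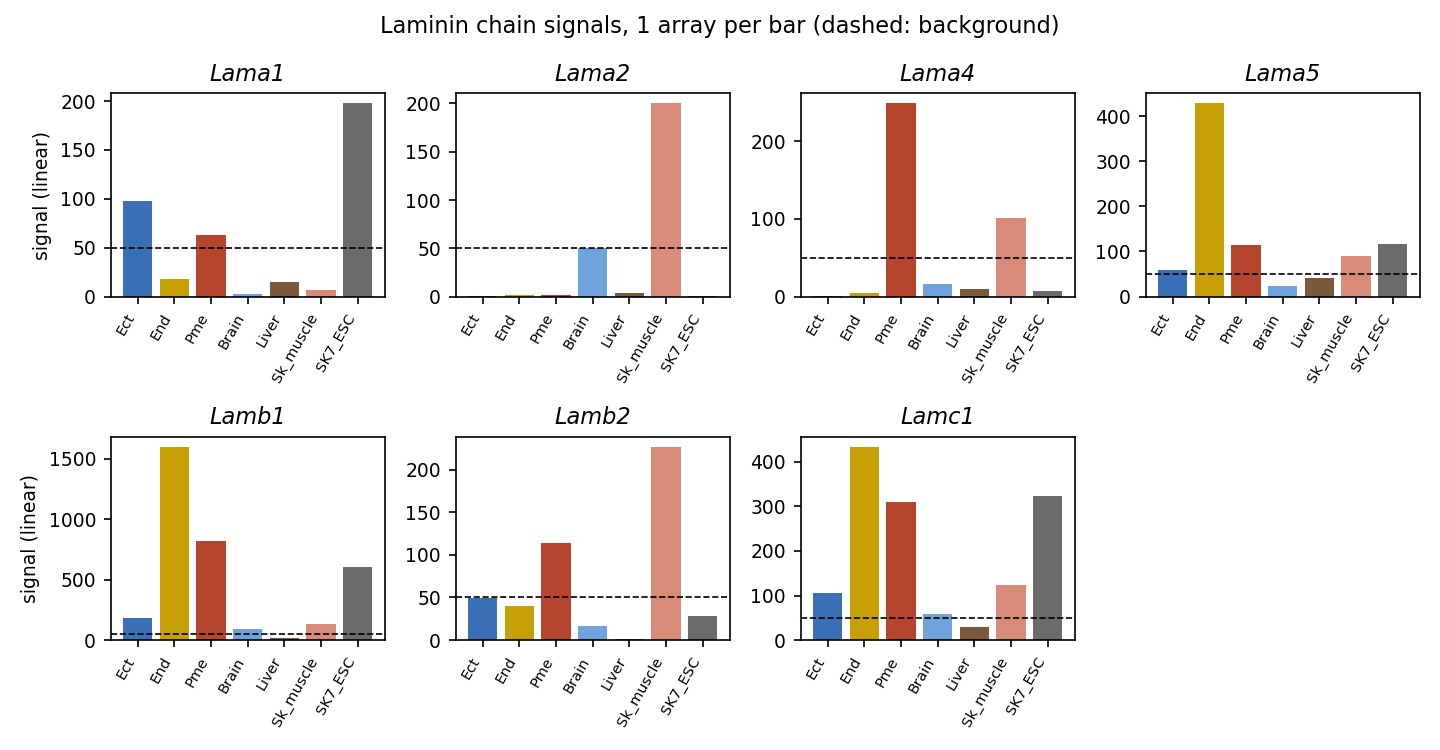
Signals of 7 laminin chains, 1 bar per array on a linear axis that starts at 0 and differs between panels. The dashed line is the background of 50. The highest bar is SK7_ESC for Lama1, Sk_muscle for Lama2 and Lamb2, Pme for Lama4, and End for Lama5, Lamb1 and Lamc1.

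The β1 and γ1 chains, which most laminins share, were brightest in End. Lamb1 was at 185.9 in Ect, 1600.6 in End, 822.5 in Pme, 91.8 in Brain, 20.5 in Liver, 132.3 in Sk_muscle and 600.7 in SK7_ESC. The layers moved apart, with End 2.66-fold above SK7_ESC, Pme 1.37 times SK7_ESC and not called, and Ect 3.23-fold below it. All 3 of its probe sets that were measured made both calls. With the geometric mean, which takes in another at 18.5 or less, the Ect ratio was 0.89 and that call ended. Lamc1 was at 106.3 in Ect, 434.0 in End, 310.1 in Pme, 59.5 in Brain, 29.2 in Liver, 123.4 in Sk_muscle and 322.3 in SK7_ESC. Ect was again low, 3.03-fold below SK7_ESC, whereas End and Pme were within 1.35-fold of SK7_ESC and were not called. The Ect call was made by 1 of its 2 probe sets. Both chains had End as the highest and Liver as the lowest array. Primitive and parietal endoderm markers, cells known for making much laminin, were above background for 1 of 9 in Ect, 5 of 9 in End, 5 of 9 in Pme and 4 of 9 in SK7_ESC, with sums of 246, 4572, 1980 and 495.5. In Pme the sum was led by Pdgfra, at 1062.2, also a gene of the paraxial mesoderm markers. In End the sum was led by Sox17, at 2941.7, also a definitive endoderm gene, while Sox7, Dab2, Thbd and Snai1 were under background. Their part in the End signals was not tested.

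Lamb2, the β chain of synapses, kidney filter and muscle, was at 49.9 in Ect, 39.9 in End, 113.9 in Pme, 16.4 in Brain, 1.8 in Liver, 226.9 in Sk_muscle and 28.0 in SK7_ESC. It passed background in the 2 arrays that also had Lama4, with Ect only just under it, at 49.9. Pme exceeded SK7_ESC and, likewise, both other layers by at least 2.28-fold. Lamb3, a chain of the epidermal laminin, reached 53.8 in End and at most 13.0 elsewhere. Among 13 laminin trimers with every chain measured, all chains were above background for 2 in Ect, 1 in End, 6 in Pme, 1 in Brain, 0 in Liver, 6 in Sk_muscle and 3 in SK7_ESC. Laminin-511 (Lama5, Lamb1, Lamc1) was complete in Ect, End, Pme, Sk_muscle and SK7_ESC, laminin-111 in Ect, Pme and SK7_ESC, and laminin-211 in Brain and Sk_muscle. These counts depend on the cutoff of 50, since Lamb2 in Ect was at 49.9 and Lama2 in Brain at 50.4. Which trimers the cells made was not measured.

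Itga6, the laminin receptor of stem cells and many epithelia, was at 359.3 in Ect, 397.0 in End, 127.1 in Pme, 132.3 in Brain, 33.8 in Liver, 229.1 in Sk_muscle and 884.2 in SK7_ESC. SK7_ESC was the highest array, and Ect lay 2.46-fold, End 2.23-fold and Pme 6.96-fold below it. A second probe set read 212.3 in Ect, 275.2 in End, 65.2 in Pme and 545.6 in SK7_ESC. It made the calls in Ect and Pme and missed the one in End, at 1.98-fold. Itga3, the other widespread laminin receptor, was called in no comparison, with 78.2 in Ect, 32.7 in End, 94.8 in Pme, 71.0 in Brain, 39.8 in Liver, 65.7 in Sk_muscle and 76.6 in SK7_ESC. With a background of 20 it was called lower in End than in SK7_ESC. Itga7, the laminin receptor of muscle fibres, was at 1.9 in Ect, 4.5 in End, 1.4 in Pme, 24.7 in Brain, 62.3 in Liver, 131.8 in Sk_muscle and 18.7 in SK7_ESC. Sk_muscle was 2.12-fold above Liver, the only other array above background.

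Itgb1, the partner of most α subunits, was at 600.4 in Ect, 853.4 in End, 1197.9 in Pme, 111.1 in Brain, 608.9 in Liver, 761.1 in Sk_muscle and 448.9 in SK7_ESC. Every layer was above SK7_ESC, and Pme passed the threshold, at 2.67-fold, while End, at 1.90-fold, did not. The Pme call was made by 2 of 3 measured probe sets and ended with the geometric mean over all 6. Brain was the lowest array, 5.48-fold below Liver and 6.85-fold below Sk_muscle. Another probe set of the gene gave a different order. It read 615.1 in Sk_muscle and between 9.7 in Brain and 74.5 in Pme elsewhere, 8.26-fold higher in Sk_muscle than in the next array, where the other 2 probe sets above background had Pme highest, at 1197.9 and 1089.8. The annotation gives this probe set the same transcript record as the main one, and its identifier marks sequence shared with other transcripts. Itgb1 is known to have a splice form of striated muscle, and whether this probe set reads it was not tested.

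**Figure D4:**
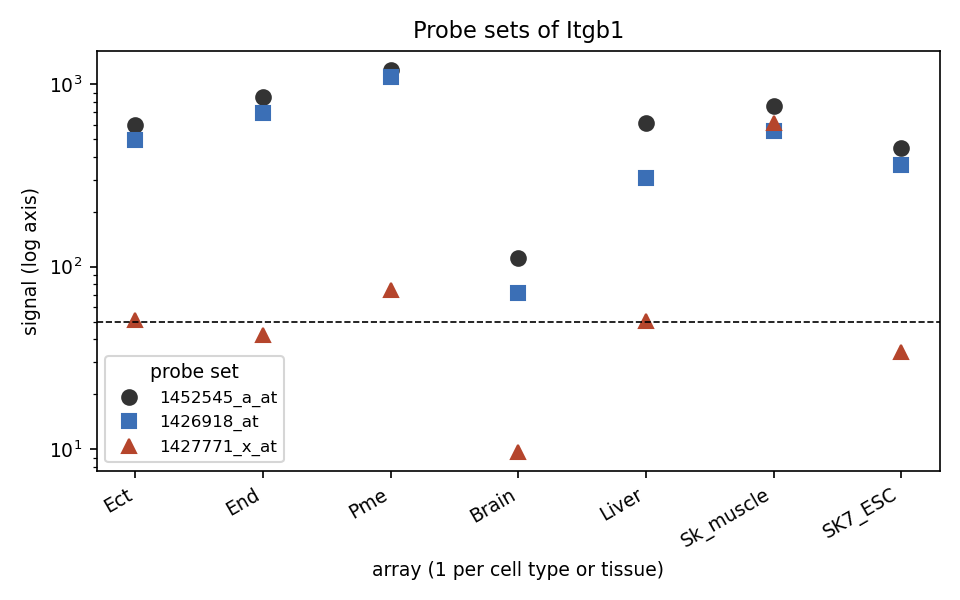
Signals of the 3 Itgb1 probe sets that passed background somewhere (log axis, dashed line at the background of 50). The circles and squares are highest in Pme and lowest in Brain, and the triangles stand at 615.1 in Sk_muscle and at most 74.5 in the other 6 arrays.

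Of the fibronectin and vitronectin receptor genes, Itgav and Itgb5 were brightest in Pme and Itga5 in End, each by its main probe set. Itgav was at 472.2 in Ect, 364.4 in End, 946.6 in Pme, 895.2 in Brain, 611.8 in Liver, 469.8 in Sk_muscle and 392.0 in SK7_ESC. Pme and Brain were high and close together. Pme exceeded SK7_ESC by 2.41-fold and both other layers by 2.005-fold. The latter call, at the threshold, ended with arrays scaled to the same median, at 1.98-fold. A second Itgav probe set had 119.0 in Brain and 116.7 in Pme. It made the call over SK7_ESC but not that over both other layers. Itgb5, the β5 partner that binds vitronectin, was at 67.0 in Ect, 192.3 in End, 477.8 in Pme, 126.5 in Brain, 298.4 in Liver, 387.0 in Sk_muscle and 217.1 in SK7_ESC. It went 2 ways, 2.20-fold above SK7_ESC in Pme and 3.24-fold below it in Ect, with the Pme call made by all 4 probe sets and the Ect call by 3 of 4. With arrays scaled to the same median the Pme ratio was 1.87 and the call ended.

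Itgb8, the αv partner that holds latent TGF-β, was at 647.5 in Ect, 18.1 in End, 111.3 in Pme, 786.5 in Brain, 13.9 in Liver, 17.9 in Sk_muscle and 5.4 in SK7_ESC. Ect and Brain were high, Pme intermediate and the other 4 arrays under background. The excess was at least 12.95-fold in Ect over SK7_ESC, 5.82-fold in Ect over the other layers, at least 2.23-fold in Pme over SK7_ESC and at least 15.7-fold in Brain over the other tissues. One probe set measures it. Itga5, the fibronectin receptor's α subunit, was at 47.2 in Ect, 115.8 in End, 73.6 in Pme, 6.3 in Brain, 66.3 in Liver, 20.1 in Sk_muscle and 57.7 in SK7_ESC. The End call, at 2.01-fold over SK7_ESC, rests on 1 probe set with shared sequence and was lost under every scaling and probe set alternative tried.

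The other matrix receptors were dim. Itga8, the nephronectin receptor, was at 77.0 in Pme, 84.6 in Liver and 59.5 in Sk_muscle and at most 37.9 elsewhere. Itga9 was at 77.5 in Liver and 81.3 in Sk_muscle, and Itga1, a collagen receptor, at 86.0 in both, with 0.5 to 15.1 in the other arrays. Itga4 barely passed background, at 52.8 in Sk_muscle, while a second probe set read 61.2 in Brain, 51.3 in Liver and 58.8 in Sk_muscle. Itgb6, the epithelial αv partner, had 62.6 in Sk_muscle, where a second probe set read 83.0 against at most 1.4 elsewhere. Of 22 integrin pairs with both subunits measured, both were above background for 5 in Ect, 4 in End, 7 in Pme, 5 in Brain, 8 in Liver, 10 in Sk_muscle and 5 in SK7_ESC, and 9 pairs were complete in no array. The pairs αvβ1 and αvβ5 were complete in all 7 arrays, α6β1 in the 6 other than Liver, and αvβ8 in Ect, Pme and Brain.

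The leukocyte and platelet subunits were at or near background. Itgb2, the common β chain of leukocytes, was at 78.4 in Liver, 41.4 in Sk_muscle and 35.5 in Brain, and at most 8.3 in the cultured cells. Itgal, its lymphocyte partner, reached 53.5 in Liver, with 15.1 or less elsewhere. Leukocyte and microglia markers were above background for 9 of 12 in Liver, 11 of 12 in Brain and 3 of 12 in Sk_muscle, with summed signals of 2973, 3096 and 654, and for 0 or 1 of 12 in each culture, with sums of 80.9 to 230.7. In culture Coro1a passed background in Ect, at 51.9, Lcp1 in End, at 154.0, and Laptm5 in SK7_ESC, at 77.9, and C1qa, Aif1, Tyrobp and Fcer1g were at 4.1 or less in every culture. Their part in the Itgb2 and Itgal signals was not tested. Itgae, of intraepithelial lymphocytes, passed background only in SK7_ESC, at 57.9, and Itga2b, the platelet αIIb, only in Pme, at 50.4, where 0 of 6 platelet markers did.

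Against SK7_ESC, Ect had 1 of the 34 genes called higher and 5 lower, where over all 18194 genes 6.63% were higher and 4.89% lower. The higher gene was Itgb8, and the lower ones were Itga6, Itgb5, Lama1, Lamb1 and Lamc1, 3 of them laminin chains. End had 3 higher (Itga5, Lama5, Lamb1) and 2 lower (Itga6, Lama1), against 4.89% and 3.81% of all genes. Pme had 6 higher (Itgav, Itgb1, Itgb5, Itgb8, Lama4, Lamb2) and 2 lower (Itga6, Lama1), against 6.75% and 4.55%. Genes with both signals under background, which could not be called, numbered 21 in Ect and End alike and 17 in Pme. No median ratio over the 34 genes is read, since so many ratios are set by the background. These 3 comparisons share the SK7_ESC array. Scaling shifted the balance of all genes, since 57.57% of Ect calls and 59.76% of Pme calls were higher as deposited, and 41.68% and 43.23% after scaling to 1 median. Before signals were raised to background, the all-gene median log2 ratio was −0.11 in Ect and −0.15 in Pme under that scaling, against 0.05 and 0.01 as deposited. Among the 34 genes the same scaling gave the 1 higher gene and 6 lower in Ect and 5 higher and 2 lower in Pme.

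**Figure D5:**
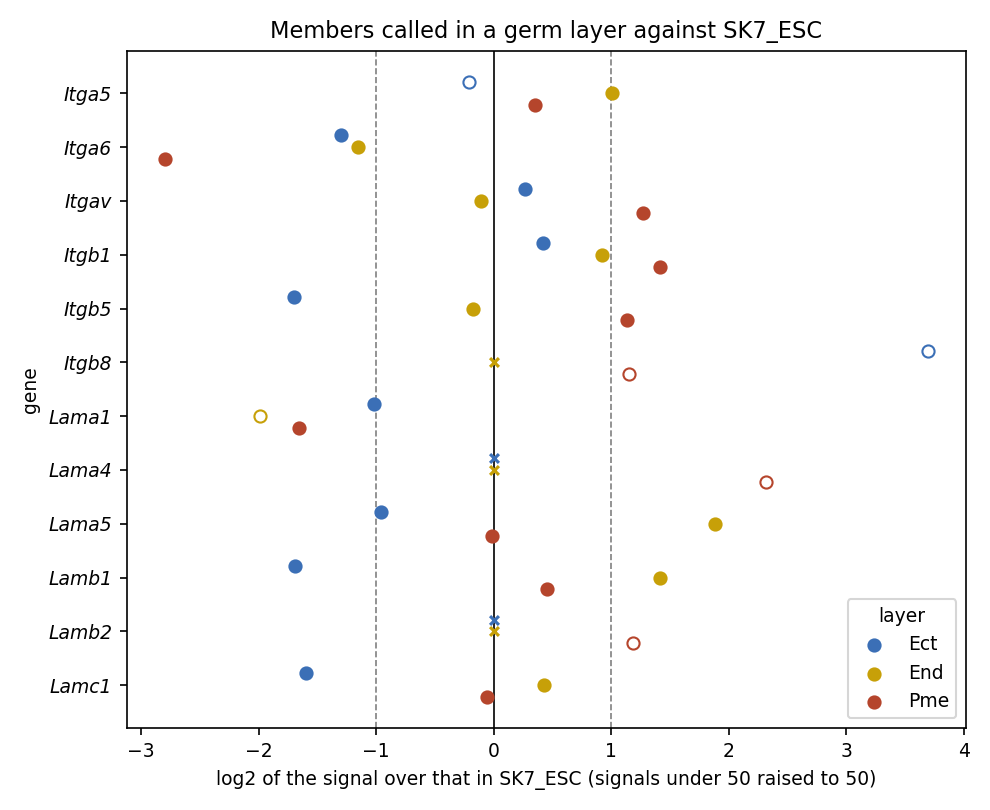
Log2 ratio of the signal in each layer to that in SK7_ESC for the 12 genes called in at least 1 layer, after signals under 50 were raised to 50. Filled points have both signals above background, open points 1 signal under it and so are bounds, crosses both under it, and dashed lines mark the 2-fold threshold. Itga6 and Lama1 lie left of zero in all 3 layers, and Itgb5 and Lamb1 lie beyond the threshold on opposite sides.

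Between the layers, Itgb8 was the 1 gene higher in Ect than in both others (1.82% of all genes), Lama5 the 1 in End (1.86%), and Itgav, Itgb5, Lama4 and Lamb2 the 4 in Pme (2.07%). Fibroblast markers were above background for 6 of 9 in Pme, 5 of 9 in Ect, 4 of 9 in End and 4 of 9 in SK7_ESC, and their summed signal was 8603 in Pme, 2135 in Ect, 537.1 in End and 765.1 in SK7_ESC. Fap at 2.4, Thy1 at 24.5 and Lum at 36.8 were under background in Pme. Their part in the Pme signals was not tested.

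Among the adult tissues, Sk_muscle had 5 genes above both others, Itga7, Lama2, Lama4, Lamb2 and Lamc1, against 7.47% of all genes. The excess was at least 4.54-fold for Lamb2, at least 2.03-fold for Lama4 and 2.07-fold for Lamc1. The last 2 calls were lost when a gene's probe sets were averaged. Brain had 1 such gene, Itgb8, against 10.9% of all genes, and Liver 0, against 7.71%. Endothelial markers, above background for 9 of 9 in Sk_muscle, 6 of 9 in Liver and 4 of 9 in Brain, summed to 2232, 605.4 and 469.4, and fibroblast markers, 9 of 9, 6 of 9 and 3 of 9, summed to 14070, 2824 and 2295. Dcn led the fibroblast sum in Sk_muscle, at 6503.7, and in Liver, at 2149.0. Thy1 led it in Brain, at 1771.2. The part of either marker set in the muscle laminin signals was not tested. Higher in every adult tissue than in every cultured cell type were 0 of the 34 genes, and lower 0, where 0.709% and 4.19% of all genes were.

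Other basement membrane genes were counted alongside. In Ect 3 of 18 were below SK7_ESC and 2 above it, where 4.89% and 6.63% of all genes were. Those below were the laminin linkers Nid2 (5.32-fold) and Nid1 (3.07-fold) and the collagen IV chain Col4a1 (2.28-fold), and those above were Col4a5 (at least 11.7-fold) and Col4a6 (at least 2.42-fold). End had 3 higher, with the proteoglycan Agrn at 3.01-fold, and 3 lower, again with Nid1 and Nid2, against 4.89% and 3.81% of all genes. Pme had 6 higher and 0 lower, against 6.75% and 4.55%, led by Col4a5 at least 14.3-fold and the matrix glycoprotein Fbln2 at 5.05-fold. In Sk_muscle 4 of 18 exceeded both other tissues, as 7.47% of all genes did, Col4a1 by 5.87-fold, Col4a2 by 4.56-fold, Fbln2 by at least 4.19-fold and Nid1 by 4.07-fold. In the same Ect array, collagen α5(IV) and α6(IV) were thus called higher and laminin α1, β1 and γ1 lower.

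Laminin receptors that are not integrins were counted next. The list also held sarcoglycans and Cd151, which are not themselves laminin receptors. Dystroglycan, Dag1, was 3.06-fold and the sarcoglycan Sgca at least 25.4-fold higher in Sk_muscle than in both other tissues, 2 of 4 such genes among 10 (7.47% of all genes), and the syndecans Sdc1 (29.7-fold), Sdc4 (7.24-fold) and Sdc2 (3.57-fold) were the 3 in Liver (7.71%). Against SK7_ESC, Sdc1, Sdc2 and Sgcb were higher in Ect and in Pme, Sdc4 was 2.28-fold lower in Ect, and End had 0 of 10 in either direction. Over all genes the higher and lower shares were 6.63% and 4.89% in Ect, 4.89% and 3.81% in End, and 6.75% and 4.55% in Pme.

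Of 13 measured integrin ligands, 3 were higher in Pme than in SK7_ESC, fibronectin Fn1 (2.94-fold), tenascin Tnc (2.93-fold) and thrombospondin Thbs1 (6.66-fold), and 2 lower, against 6.75% and 4.55% of all genes. In Ect 1 was higher, Thbs1 at 2.10-fold, and 2 lower (6.63% and 4.89%), and in End 0 were higher and 1 lower (4.89% and 3.81%). Icam1, the ligand of β2 integrins, was lower in each layer by at least 6.29-fold, and Cdh1, the E-cadherin bound by αEβ7, was lower by at least 26.4-fold in Ect and Pme and was at 2204.2 in End, against 1321.4 in SK7_ESC. In Liver 5 of 13 exceeded both other tissues (7.71% of all genes), among them Fgg of fibrinogen (161-fold), vitronectin Vtn (37.8-fold) and Fn1 (23.9-fold).

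Of 22 measured proteins that tie integrins to actin, 3 exceeded SK7_ESC in Ect, 4 in End, 5 in Pme, and 1 was lower in each layer, where over all genes 6.63%, 4.89% and 6.75% were higher and 4.89%, 3.81% and 4.55% lower. Zyxin, Zyx, was higher by 2.68-fold in Ect, by 2.30-fold in End and by 4.87-fold in Pme. Integrin-linked kinase, Ilk, was higher by 2.14-fold in Ect, 2.15-fold in End and 3.06-fold in Pme. Parvb, which binds that kinase, was the 1 lower gene, by at least 2.95-fold in Ect, 2.34-fold in End and 2.80-fold in Pme. In Sk_muscle 7 of 22 were higher than in both other tissues (7.47% of all genes), led by Itgb1bp2, the muscle protein melusin that binds the β1 tail, at 1816.6 against 0.5 in Brain and 10.4 in Liver, at least 36.3-fold. In Brain 1 was, the kinase Ptk2b, at least 9.87-fold (10.9% of all genes), and in Liver 0 (7.71%).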

How the data were processed

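RNA of 7 samples was hybridised by the authors to the Affymetrix mouse genome array, and the deposited table holds linear intensity values of 45101 probe sets, globally scaled to an average of 100. The algorithm that summarises each one was not given in the sources used here. Without the highest and lowest 2% every array averaged 100.0, and medians were 15.6 to 25.0. The labels and the methods differ on the RNA kit, and the labels give the strain of SK7 as ICR. Gene names came from the platform annotation, in which 34958 probe sets had 1 symbol, 932 several, and 9211 were unnamed here. All 34 genes matched RefSeq by Entrez identifier. They had 73 probe sets, and 14 of them had 1. Signals under 1 were raised to 1 when mean log2 signals were compared.

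Signals under 50 were raised to 50, and a ratio of at least 2 with the brighter signal at 50 or more was called. The rule takes every gene of the family and names those called and the main matrix receptors, and gives genes of the context lists by count with the largest ratios. The members, lists and thresholds were chosen with earlier results of these data known. With 1 array per group no test was made, and their number limits the precision. The arithmetic of the calls was tested on simulated data, which gives no error rate for them. The 6 alternatives included a background of 20, a ratio of 3, scaling to the same median and quantile normalization. The others were the geometric mean over probe sets, and leaving out shared-sequence probe sets where a gene had any other. Promoter windows were those of RefSeq on GRCm38.p6, the one with most CpG where a gene had several (3 of the 22). Python 3.11.15, numpy 2.4.6, pandas 2.3.3 and matplotlib 3.10.9 were used.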

Additional observations from a re-analysis of the deposited data

Results flagged for a closer look

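Lamb1 and Itgb5 were each called higher than SK7_ESC in 1 layer and lower in another. Lamb1 was at a ratio of 2.66 in End over SK7_ESC and of 0.31 in Ect over SK7_ESC, where the geometric mean over probe sets gave 0.89 and no call. Itgb5 was at a ratio of 2.20 in Pme over SK7_ESC, or 1.87 and no call with arrays scaled to the same median, and of 0.31 in Ect over SK7_ESC. With 1 array per layer the difference between the layers was not tested, and both contrasts of each gene share the SK7_ESC array.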

How the results depend on the processing

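No paired analysis was possible because each group has 1 array. Of 31 calls of single genes, 30 held with quantile normalization and 28 with arrays scaled to the same median. The geometric mean over probe sets left 22, and a ratio of 3 left 15. The geometric mean could not alter calls of genes with 1 probe set, which were Itgb8, Lama1, Lama2, Lamb2 and Itga7. Leaving out shared-sequence probe sets left 30, but could only alter calls whose main probe set had shared sequence. A gene with no other probe set kept its own. All 31 held at a background of 20, which was fixed in advance, since a lower background cannot shrink a called ratio. In direction 0 calls changed, which the background of 20 and the ratio of 3 could not have shown. A ratio of 3 left 3 genes lower in Ect, 1 higher and 1 lower in End and 1 higher in Pme than SK7_ESC, 1 higher in Pme than the other layers and 2 in Sk_muscle above both tissues. The geometric mean, which averages in dim probe sets, left 1 gene higher in End than SK7_ESC and 3 in Sk_muscle, and put 5 genes above background in Ect, 5 in End, 9 in Pme, 4 in Brain, 4 in Liver, 7 in Sk_muscle and 5 in SK7_ESC. With it Lama5 in End, Itgav and Itgb1 in Pme and Lamb1 in Ect were no longer called. A background of 20 gave 5 genes lower in End and 4 lower in Pme than SK7_ESC, 2 higher in End than the other layers, 2 higher in Liver than both tissues, and 14 genes above background in End, 18 in Brain and 21 in Liver. Lamb1 joined Lama5 as higher in End than the other layers, making 2, both with arrays scaled to the same median and without shared-sequence probe sets. Quantile normalization gave 8 genes in Sk_muscle above both tissues. The fixed background limits what can be called, since a gene under it in both arrays has no measured ratio.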
